A study of Caenorhabditis elegans with 2 samples.

Results

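The V0 sector of the vacuolar H+-ATPase (V-ATPase) was examined through 10 Caenorhabditis elegans genes, vha-1 to vha-7, vha-16, vha-17 and vha-19, out of 19973 protein-coding genes on the 6 nuclear chromosomes. The genes were taken by name from the Ensembl annotation, as a list of subunits and not by a threshold on binding. The assay was ChIP-seq for eGFP-tagged SKN-1 in whole L1 larvae, the stage that follows hatching, in 2 biological replicates and 1 group. The worms were of strain OP178, which carries the unc-119(ed3) allele on chromosome III and the transgene wgIs178 with the tagged skn-1, and the labels name skn-1 as the antibody's target. The labels do not say which promoter drives the transgene or how many animals were pooled, and they describe the sexes as mixed. SKN-1 is a transcription factor related to mammalian Nrf proteins, known in worms for endoderm specification in the embryo and for stress and detoxification genes later on.

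The V-ATPase pumps protons into lysosomes, endosomes and other compartments and across some cell surfaces. Its V1 sector lies in the cytosol and hydrolyses ATP, and its V0 sector lies in the membrane and carries the protons. In V0, a ring of proteolipid c subunits turns against the a subunit, which holds the proton path. In the worm, vha-1, vha-2 and vha-3 encode c-type proteolipids, vha-4 a c″-type proteolipid, vha-16 the d subunit that couples the ring to the stalk, vha-17 the small e subunit, and vha-19 an accessory subunit of the Ac45 kind. The a subunit has 4 genes, of which vha-5 is known for the hypodermis and excretory cell, vha-6 for the intestine and vha-7 for the hypodermis and uterus. These 3 are called tissue-limited here and the other 7 members widely expressed. That division is background knowledge, since the deposited data hold no expression values. The fourth a-subunit gene, unc-32, is prominent in neurons and was kept outside the 10 members.

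The windows below show the sequence under the strongest SKN-1 summit in the promoter of 4 widely expressed V0 genes, 2 of them from the thresholded optimal list (vha-1 and vha-17) and 2 from the unthresholded pooled list (vha-4 and vha-19). Each window is 151 bases long, 75 either side of the summit, written 5′ to 3′ on the gene's own strand, from the RefSeq WBcel235 genome. Capitals mark ATCAT or GTCAT, the short core bound by SKN-1 in earlier work, or the same core read on the other strand. On ce11 the windows are chrIII:9780725-9780875 on the plus strand for vha-1, chrIV:9321181-9321331 on the plus strand for vha-17, chrII:7879391-7879541 on the minus strand for vha-4 and chrIV:3368748-3368898 on the plus strand for vha-19.
vha-1 optimal summit: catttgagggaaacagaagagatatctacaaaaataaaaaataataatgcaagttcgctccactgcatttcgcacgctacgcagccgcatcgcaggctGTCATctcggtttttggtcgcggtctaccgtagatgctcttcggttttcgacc
vha-17 optimal summit: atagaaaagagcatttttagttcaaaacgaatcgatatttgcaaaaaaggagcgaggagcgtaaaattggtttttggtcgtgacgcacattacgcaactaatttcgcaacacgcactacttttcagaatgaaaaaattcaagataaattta
vha-4 pooled summit: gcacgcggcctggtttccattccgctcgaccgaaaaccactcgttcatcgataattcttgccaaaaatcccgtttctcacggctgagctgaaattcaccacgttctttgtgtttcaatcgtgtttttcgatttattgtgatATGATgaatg
vha-19 pooled summit: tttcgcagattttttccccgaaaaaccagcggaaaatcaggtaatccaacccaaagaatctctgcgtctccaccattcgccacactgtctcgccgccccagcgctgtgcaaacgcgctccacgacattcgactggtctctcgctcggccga

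The optimal list comprised 3484 peaks, the pooled list 27729 regions and the list of each replicate 30000. The 3484 optimal peaks were exactly the 3484 pooled regions of highest signal, so a region's rank by signal is the same in both lists. The last optimal peak had a signal of 32.96, against a median of 58.1 over the optimal list and 12.6 over the pooled list. Nearly all regions of a list had the same width, 296 bp in the optimal and pooled lists, 304 bp for replicate 1 and 280 bp for replicate 2. Replicate and pooled lists hold background regions by construction, so a low-ranked region in them is a listing and not a peak call. No ChIP of worms without the tag was analysed here, and specificity for the tagged protein was not tested.

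An optimal SKN-1 peak lay in the promoter window of 3 of the 10 V0 genes, vha-1, vha-16 and vha-17 (30%). The window covered 1000 bp before and 200 bp after any annotated transcript start, and by the same rule 3007 protein-coding genes (15.1%) were bound. All 3 bound members were of the widely expressed class, 3 of 7 (42.9%), and 0 of the 3 tissue-limited a-subunit genes were bound. With 3 genes in a class and a background of 15.1%, these counts describe the genes and were not tested. The ChIP was of whole larvae, so binding in a few cells and no binding cannot be told apart at vha-5, vha-6 and vha-7.

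The strongest of the 3 was at vha-1, the c proteolipid gene (WBGene00006910, chrIII:9781254-9781763, plus strand). Its optimal peak, at chrIII:9780652-9780947, ranked 287 of 3484 with a signal of 143, among the top 8.24% of the list, and its summit lay 454 bp upstream of the start, between genes. In replicate 1 the region ranked 492 of 30000 with a signal of 54.3, and in replicate 2 it ranked 188 with a signal of 97.6. The summits of the replicates lay 5 bp apart. The GTCAT in the window printed above began its 5 bases at chrIII:9780823, and its centre lay 25 bp from the summit.

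The vha-1 peak also lay in the promoter window of sqv-3 (WBGene00005021), a divergent gene on the minus strand whose start is 900 bp from that of vha-1. sqv-3 encodes a galactosyltransferase of glycosaminoglycan synthesis. The summit was 446 bp from the sqv-3 start and 454 bp from the vha-1 start, a difference of 8 bp, so the peak sat near the middle of the shared intergenic region. These data cannot tell which of the genes the bound site serves.

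At vha-17, the e subunit gene (WBGene00009882, chrIV:9321801-9322525, plus strand), the optimal peak at chrIV:9321108-9321403 ranked 1235 with a signal of 72.3 (top 35.4%). The summit lay 545 bp upstream. It ranked 1275 in replicate 1 with a signal of 32.1, and 1647 in replicate 2 with a signal of 35.9, and the replicates' summits lay 10 bp apart. The same peak was in the window of the divergent gene F49C12.12, whose start was only 167 bp from the summit, 378 bp nearer than the start of vha-17. The starts of that pair lie 712 bp apart. Replicate 1 also listed a weak region 64 bp upstream of vha-17, at rank 13180, which replicate 2 did not list in the window.

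The d subunit gene vha-16 (WBGene00016258) was the only bound member whose peak lay in no other protein-coding gene's window. It lies at chrI:5079910-5082279 on the minus strand and has 3 annotated starts. Its optimal peak at chrI:5082343-5082638 ranked 1558 with a signal of 62.8 (top 44.7%), with the summit 212 bp upstream of the nearest start. It ranked 1611 in replicate 1, with a signal of 27.7, and 1741 in replicate 2, with a signal of 34.5. The summits of the replicates lay 11 bp apart. The nearest gene upstream, kin-32, is divergent and begins beyond a gap of 4030 bp.

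Among the 3 bound members, vha-1 was ranked highest in every list, and vha-17 was ranked above vha-16. Their summit distances of 5, 10 and 11 bp can be set beside the 2303 optimal peaks in promoter windows, for which the distance between replicates' summits had a median of 22 bp, quartiles of 8 and 46 bp, and was at most 100 bp for 93.2%. At or below the distance at vha-1 lay 17.7% of those peaks, at or below that at vha-17 29.4%, and at or below that at vha-16 31.7%. All 3 members' distances were below the median.

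**Figure D1:**
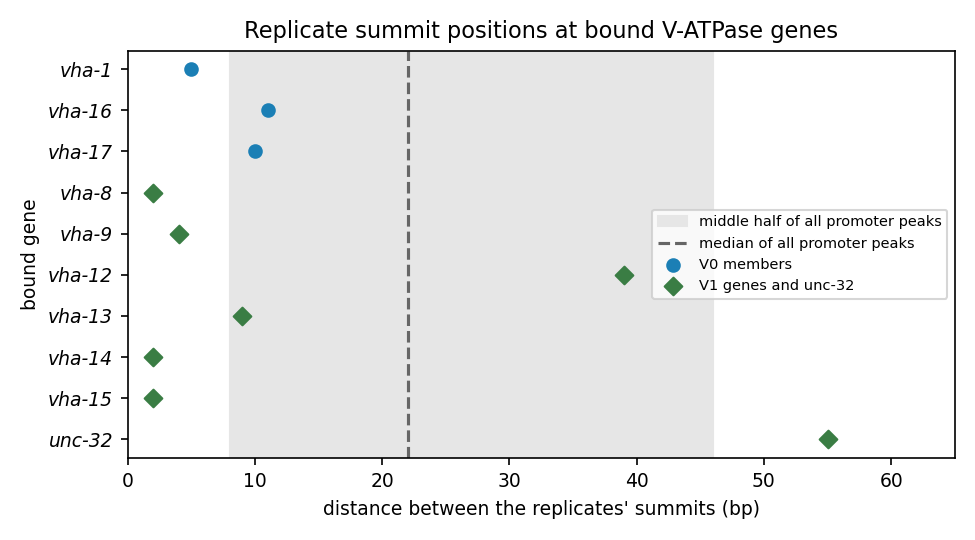
Distance in bp between the summits of replicate 1 and replicate 2 (horizontal axis) at each bound V-ATPase gene (vertical axis), for V0 members (circles) and V1 genes with unc-32 (diamonds), with the quartiles of 2303 promoter peaks shaded from 8 to 46 bp and their median of 22 bp dashed. The 3 V0 members lie at 5, 11 and 10 bp, all left of the median.

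The 7 members with no optimal peak were not alike. vha-19, the accessory subunit gene (WBGene00021952, chrIV:3369197-3373485, plus strand), came closest in a single replicate. Replicate 1 ranked a region 311 bp upstream of its start at 1860, with a signal of 24.9. That rank is within the strongest 3484 of its own list. Replicate 2 listed no region in the window, and its nearest region to that summit lay 2.72 kb away, at rank 28463. The pooled list held a region at chrIV:3368675-3368970, 374 bp upstream, at rank 5685 with a signal of 21.7, below the last optimal peak. Of the stretches of 36 bases in the vha-19 window, 93.3% occurred once in the genome, against 99.3% for vha-7 and 100% for the other members. Whether mapping bears on the difference between replicates at vha-19 was not tested.

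The c″ proteolipid gene vha-4 (WBGene00006913, chrII:7878082-7879316, minus strand) had a pooled region at chrII:7879318-7879613, at rank 7730 with a signal of 17.5. Its summit lay 150 bp from the start of vha-4 and equally far from the divergent gene T01H3.5, in a gap of 299 bp. Replicate 1 placed a region at rank 17880 inside the window, 191 bp downstream of the start in a coding exon, and replicate 2 listed no region in the window, its nearest being at rank 11760 in an intron 481 bp downstream. The replicates thus did not list the same position at vha-4. The ATCAT of the vha-4 window printed above lay 68 bp from the pooled summit.

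vha-3, another c proteolipid gene (WBGene00006912, chrIV:2315460-2315945, minus strand), had no region in its window in any list, but missed both limits of the rule by a little. A pooled region at chrIV:2316856-2317151 had a signal of 32.8 and rank 3500, which is 16 places past the last optimal peak. Its summit lay 1059 bp upstream of the start, 59 bp past the edge of the window, in an exon annotated to Y38F2AL.12. Both replicates listed it, at rank 5458 in replicate 1 (1030 bp upstream) and at rank 2593 in replicate 2 (1076 bp upstream).

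vha-2, the c proteolipid gene reported to encode the same protein as vha-3 (WBGene00006911, chrIII:9782164-9783224, plus strand), follows vha-1 on the same strand after a gap of 400 bp, and their starts lie 910 bp apart. The peak of vha-1 was thus 1364 bp upstream of vha-2, which is 364 bp outside its window. The rule treats each annotated start separately, and whether vha-1 and vha-2 are transcribed together from a shared promoter was not tested. In the window itself, replicate 2 alone listed a region, at rank 29580 of 30000, and it lay within a coding exon of vha-1. Replicate 1 listed a region at rank 6720 in an intron of vha-2, 208 bp downstream of its start and so just past the window.

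Among the a-subunit genes, vha-5 (WBGene00006914, chrIV:8303968-8307371, plus strand) had no region in its window in any list. Its nearest pooled region was 9.35 kb upstream, at rank 22752, and its nearest optimal peak 14.2 kb away. Only 2 pooled regions lay within 10 kb of its start, the fewest of the 10 members, against 12 at vha-4 and a median of 5 over all protein-coding genes. Replicate 1 listed 6 regions in that span of vha-5 and replicate 2 listed 1, beside a median of 5 in each list. A region of replicate 1 lay 1830 bp upstream of vha-5, at rank 9836. vha-7 (WBGene00006916, chrIV:12640462-12650652, plus strand) also had no region in the windows of its 2 starts. The pooled list held weak regions in its introns, at rank 15140, 478 bp downstream of a start, and at rank 10377, 1272 bp upstream of the later start, and its nearest optimal peak lay 10031 bp away.

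The intestinal a-subunit gene vha-6 (WBGene00006915, chrII:11435210-11438452, minus strand) had a region in its window in replicate 1 alone, 70 bp upstream of the start, at rank 24752 of 30000. Replicate 2 and the pooled list had none there. A stronger peak stood further upstream, at chrII:11440217-11440512, with rank 1456 and a signal of 65.6 in the optimal list, rank 2417 in replicate 1 and rank 1082 in replicate 2. It was 1913 bp from the start of vha-6 and 36 bp from that of VW02B12L.2, the neighbouring gene on the same strand, which was bound. No optimal summit lay inside the body of any of the 10 members.

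**Figure D2:**
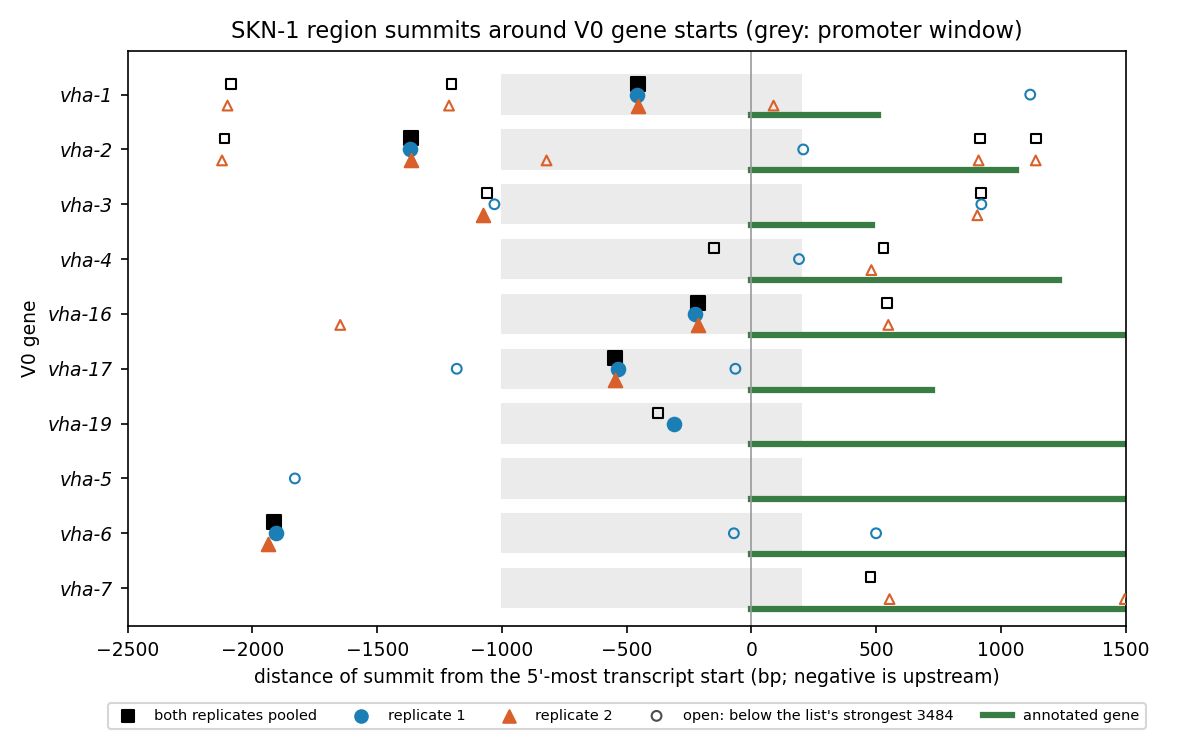
Summits of listed regions around the 5′-most start of each V0 gene, as distance in bp along the gene's strand, with the promoter window in grey, the gene in green, and squares, circles and triangles for the pooled list, replicate 1 and replicate 2 (filled where the rank is within the strongest 3484 of its list). All 3 lists have a filled symbol in the windows of vha-1, vha-16 and vha-17, vha-19 has a filled symbol from replicate 1 alone, and the filled symbols of vha-2, vha-3 and vha-6 lie upstream of their windows.

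**Figure D3:**
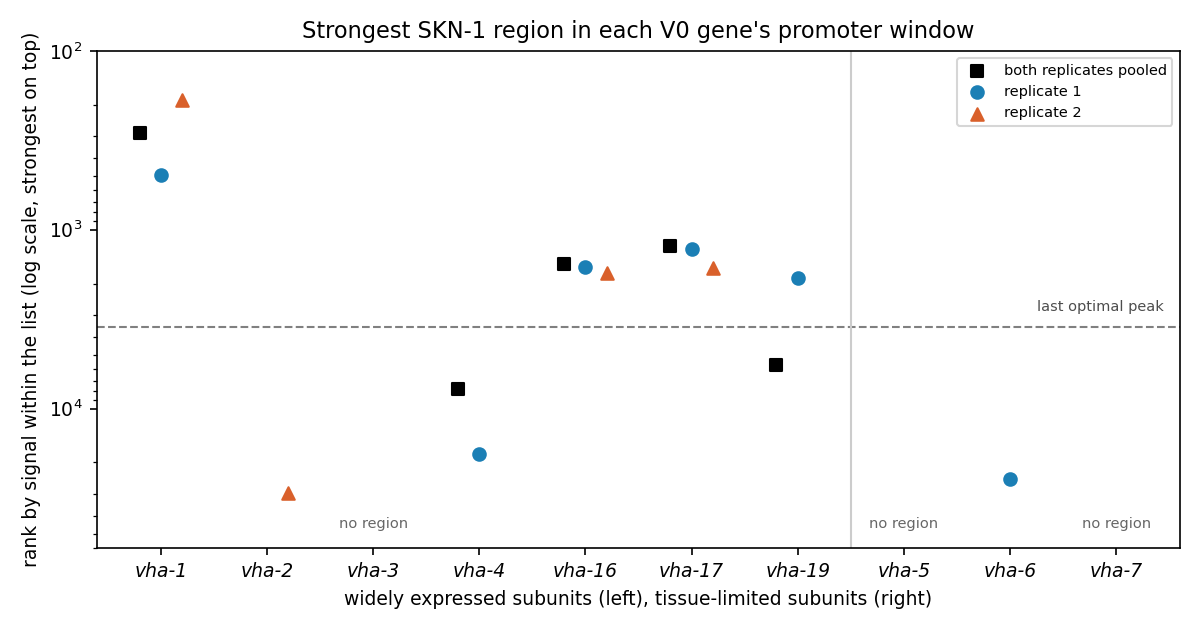
Rank by signal (log scale, strongest on top) of the strongest region in each V0 gene's promoter window, in the pooled list of 27729 regions and in each replicate's 30000, with the last optimal peak at rank 3484 dashed. The bound members lie between rank 188 and 1741 in every list, and vha-3, vha-5 and vha-7 have no region in any.

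Counting any listed region, whatever its rank, the pooled list placed a region in the windows of 5 members, vha-1, vha-4, vha-16, vha-17 and vha-19, where 44.7% of all genes had one. The whole list of replicate 1 did so for 6 members, the same 5 and vha-6, with 45.8% of genes, and that of replicate 2 for 4, vha-1, vha-2, vha-16 and vha-17, with 46.2%. At this depth of list the members' counts were near the background. Over the 3 lists, 7 members had a region somewhere in the window and 3 (vha-3, vha-5 and vha-7) had none.

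How many members counted as bound depended on the calling rule. A window from 500 bp upstream to 100 bp downstream left 2 members, vha-1 and vha-16, with 12.2% of genes bound. A window from 2000 bp upstream raised the count to 5, adding vha-2 through the vha-1 peak and vha-6 through the VW02B12L.2 peak, with 19.1% of genes bound. When each peak was given only to the gene with the nearest start, vha-16 alone remained bound, with 11% of genes, because the peaks of vha-1 and vha-17 went to sqv-3 and F49C12.12. Of all 3007 bound genes, 72.9% stayed bound under that rule, and of the 2303 promoter peaks 797 (34.6%) lay in the windows of several genes.

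The remaining rules kept vha-1, vha-16 and vha-17. They were the members bound when only the upper 50% of the optimal peaks by signal were used, with 8.81% of genes bound, by any overlap of the region with the window, with 15.9%, and when only the 5′-most start of each gene was used, with 14%. The 3484 strongest regions of replicate 2 gave the same 3 members, with 14.9% of genes bound, and those of replicate 1 gave vha-19 as well, with 14.1%. A tissue-limited gene was bound by an optimal peak in the 2000 bp window only, where 1 of 3 was (vha-6). Reporters of vha-1, vha-2 and vha-3 were described as strongest in particular tissues. If these genes are also counted as tissue-limited, 2 of 4 widely expressed and 1 of 6 tissue-limited genes were bound by the main rule. The 0 of the tissue-limited class thus rests on where vha-1 is put, and also on keeping unc-32 outside the members. That a-subunit gene, prominent in neurons, had an optimal peak in its promoter window.

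**Figure D4:**
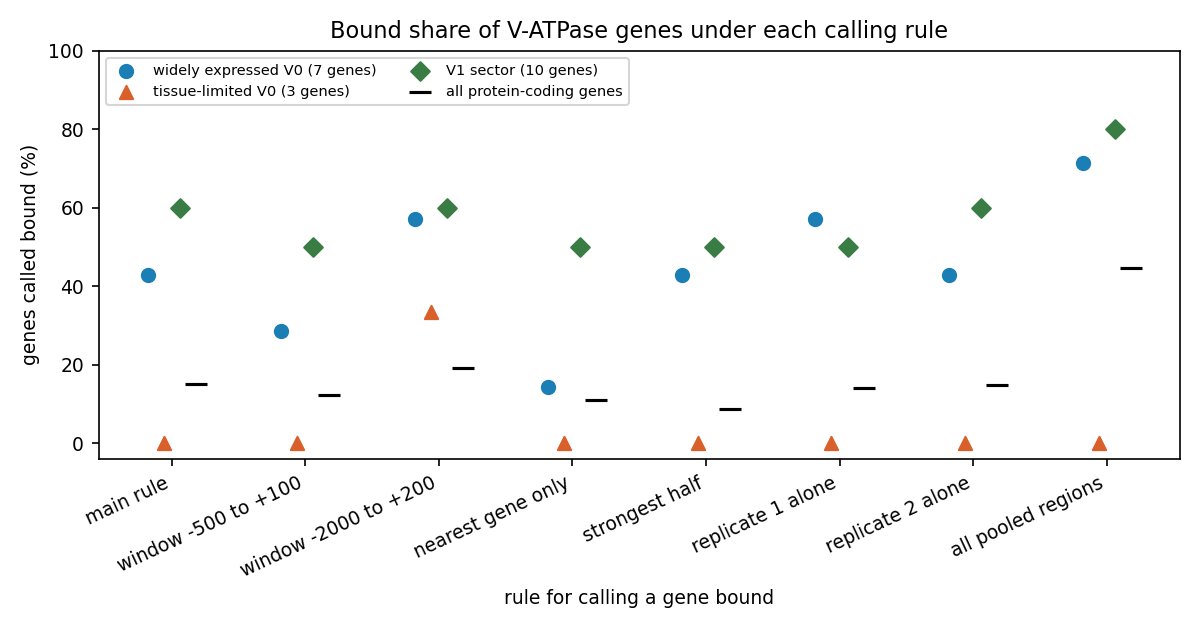
Percent of genes called bound (vertical axis) under 8 calling rules (horizontal axis) for 7 widely expressed V0 genes, 3 tissue-limited V0 genes, 10 V1 genes and all 19973 protein-coding genes. Widely expressed V0 genes move between 1 and 5 of 7, and the tissue-limited genes leave 0 only in the 2000 bp window.

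The rest of the pump gives a scale for these counts. Of the 10 V1 genes, 6 were bound (60%), against 3 of 10 in V0 and 15.1% of all genes, and the difference between sectors was not tested. They were vha-15 (H subunit) at rank 103, vha-8 (E) at 419, vha-12 (B) at 433, vha-13 (A) at 933, vha-9 (F) at 1017 and vha-14 (D) at 2363. vha-10 (G), vha-11 (C), vha-18 (an H paralogue) and spe-5 (a B paralogue) were not bound. The median rank was 683 over the bound V1 genes and 1235 over the bound V0 members, beside 1447 over all bound genes. The nearest-gene rule kept 5 of 6 bound V1 genes, losing vha-8, whose peak lay nearer to the divergent C17H12.2, whereas it kept 1 of 3 bound V0 members.

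The fourth a-subunit gene, unc-32, had an optimal peak at rank 1720 with a signal of 58.6, 214 bp upstream of its start and in no other gene's window. It ranked 2064 in replicate 1 and 1004 in replicate 2, whose summits lay 55 bp apart. A stronger optimal peak stood outside its window, at chrIII:8904148-8904443, 1319 bp upstream, with rank 188 and a signal of 168 (rank 108 in replicate 1 and 439 in replicate 2). Of the 4 a-subunit genes, it was thus the only one with an optimal peak in its promoter window. The accessory subunit gene vha-20 was not bound and had a pooled region at rank 11963. With unc-32 and vha-20 added, 4 of 12 V0 genes were bound (33.3%), beside 15.1% of all genes.

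In mammalian cells the pump takes part in docking the TORC1 growth kinase at the lysosome. Of 8 worm genes for that step and for TORC1 itself, 4 were bound, beside 15.1% of all genes, namely lmtr-3, a Ragulator subunit, at rank 1043, the GTPase gene ragc-1 at 1598, daf-15, the Raptor gene, at 1230 and the GTPase gene rheb-1 at 582. lmtr-2, lmtr-5, raga-1 and let-363 were not. The strongest regions of replicate 1 alone gave 3 of 8, without ragc-1, whose only region in the window there ranked 27053. hlh-30, the worm relative of the lysosomal regulator TFEB, had 2 optimal peaks in the windows of its 10 annotated starts, at ranks 1882 and 2262. The first summit lay 998 bp upstream of a start, near the window's edge. In replicate 2 that region ranked 1892 and its summit, 1047 bp upstream, fell outside the window. The strongest region in the windows ranked 384 in replicate 1 and 8395 in replicate 2. By the strongest regions of replicate 2 alone, hlh-30 was thus not bound. Nor was it bound from its 5′-most start only, or when the weaker optimal peaks were left out. Stronger optimal peaks stood in introns of hlh-30 outside the windows, at ranks 579 and 1177, with signals of 105 and 74.3. They ranked 246 and 792 in replicate 1, and 970 and 2116 in replicate 2. The many starts of hlh-30 give it more window than any V0 member.

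The distance from peak to start differed among the bound members. Over all 3007 bound genes the strongest summit lay a median of 222 bp upstream, with quartiles of 126 and 413 bp. vha-16 at 212 bp was close to the median, whereas vha-1 at 454 bp and vha-17 at 545 bp lay beyond the upper quartile. Both of those lay in intergenic regions shared with a divergent gene. All these distances are to annotated transcript starts, and where transcription begins was not measured.

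The letters under the members' summits were searched for 5 motifs. ATCAT or GTCAT, searched on both strands within 75 bp of the summit, occurred once at vha-1 and not at vha-16 or vha-17, so in 1 of 3 bound members, beside 42.5% of all optimal peaks. The longer forms (ATATCAT or ATGTCAT, and those with T in front, TTATCAT or TTGTCAT) were held by 12.6% of optimal peaks and occurred at none of the 3. Neither did TGACNNNGC, the core of the mammalian antioxidant response element (3.87% of peaks), the E-box CACGTG (6.11%), or TGATAA, the site of intestinal GATA factors (8.47%), which overlaps TTATCAT on the other strand. In the 2 pooled windows, ATCAT occurred once at vha-4 and not at vha-19. Windows of the same length away from peaks were not searched for these motifs, so the shares over optimal peaks do not show enrichment. These matches describe letters in a 151 bp window and do not show what SKN-1 was bound to.

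The same letters were counted at the starts themselves. Only the 5′-most start of each gene was used. In the 300 bp around it, 250 bp before and 50 bp after, 72.1% of protein-coding genes held ATCAT or GTCAT and 5.15% held TGACNNNGC. Of the bound members, vha-1 held 1 ATCAT or GTCAT and vha-16 and vha-17 none, and none of them held TGACNNNGC or TGATAA. Among members without an optimal peak, vha-5 and vha-4 held 2 ATCAT or GTCAT each, vha-6, vha-7 and vha-19 held 1 each, and vha-2 and vha-3 none. vha-6 and vha-7 each held 1 TGACNNNGC. TGATAA, which 30.2% of promoters contained, occurred 2 times at vha-6 and 1 time each at vha-4 and vha-19. GC content over the summit windows was 46.4% at vha-1, 47.7% at vha-16 and 33.8% at vha-17, beside medians of 43.7% over optimal peaks and 34.3% over promoters.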

How the data were processed

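SKN-1 occupancy was measured by chromatin immunoprecipitation and sequencing (ChIP-seq) in 2 biological replicates of L1 larvae. The authors deposited region lists on the ce11 assembly. The lists of single replicates and of the pooled replicates hold peaks and background regions, made against 1 shared control alignment, per the deposited readme, and the optimal list holds peaks kept by the irreproducible discovery rate (IDR) procedure. The signal value of each region is the one the authors deposited and was used only to rank regions within a list. No source used here gives the caller, the aligner, the IDR threshold or the read depth, so no counting interval is printed. Regions on ce10 were not used.

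A summit is the region's start plus its deposited offset, written counted from 1. Transcript starts of 19973 protein-coding genes came from Ensembl release 115 (WBcel235, the assembly that ce11 names), and sequence came from the RefSeq WBcel235 genome. Bound genes are those with an optimal summit in the promoter window, 1000 bp before to 200 bp after any of their transcript starts. The window rule was tested on simulated summits placed at known distances from annotated starts. Tables were made with Python 3.11.15, pandas 2.3.3 and numpy 2.4.6.

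The series has 1 group and no second condition, so no test between groups was run and no p-value is given. The genes, their classes and the motif list were chosen with earlier results of these data known. The genes named by rule are the 10 V0 members, genes sharing a bound member's peak, and the other pump and lysosomal genes on lists written out in full. Other neighbouring genes (kin-32, C17H12.2, T01H3.5, Y38F2AL.12 and VW02B12L.2) were named after their values were seen. Alternatives were other windows, nearest-gene assignment, stricter and looser lists, and each replicate alone.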

Additional observations from a re-analysis of the deposited data

How the results depend on the processing

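Of the 10 V0 genes, 3 were bound by the rule of the report, all 3 widely expressed and 0 tissue-limited. That rule bound 15.1% of all protein-coding genes. The 2000 bp window gave 5 V0 genes, 1 of them tissue-limited, with 19.1% of all genes bound. Nearest-gene assignment gave 1 V0 gene, which was widely expressed, with 11% of all genes. The whole pooled list gave 5 V0 genes, all 5 widely expressed, with 44.7% of all genes. Counting vha-1, vha-2 and vha-3 as tissue-limited gave 1 tissue-limited gene. Leaving out either replicate gave 3 to 4 V0 genes, 3 to 4 widely expressed and 0 tissue-limited, with 14.1% to 14.9% of all genes. The whole lists of single replicates were chosen after seeing the data. That of replicate 1 gave 6 V0 genes, 5 widely expressed and 1 tissue-limited, with 45.8% of all genes. That of replicate 2 gave 4, 4 and 0, with 46.2% of all genes. On the whole lists the members' counts were near the background. Between the replicates alone, ranks ran from 188 to 492 at vha-1, 1611 to 1741 at vha-16 and 1275 to 1647 at vha-17. No paired analysis was possible because the series has 1 group. Read depth is unknown, so the absence of a region cannot be set against a detection limit. Both replicates shared 1 control alignment.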

Other observations

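A run of 12 letters, ggtttttggtcg, was the longest that the summit windows of vha-1 and vha-17 had in common. It was noticed only after those sequences had been read, and both members hold it by construction, so it is given as a description with no test. It lay 37 bp from the vha-1 summit, at chrIII:9780831-9780842, and 1 bp from the vha-17 summit, at chrIV:9321249-9321260. Exact copies stood in 2 of 3484 optimal summit windows (0.0574%), namely these, and in 0 windows of equal length 1000 bp away. Of 19973 promoters 1 held it, that of F49C12.12, and this was the same copy as at the vha-17 summit. With up to 1 mismatch, 7 optimal windows (0.201%) held it, beside 2 windows (0.0574%) 1000 bp away and 56 promoters (0.28%). The 7 include the vha-1 and vha-17 windows from which the run was taken, and the 56 include the F49C12.12 promoter. The shares are therefore not a free comparison. Among the promoters with 1 mismatch was that of vha-4, whose pooled summit had ggttttcggtcg 44 bp away, at chrII:7879504-7879515. The window of vha-16, the third bound member, had no copy with fewer than 4 mismatches, that of vha-19 none with fewer than 3, and those of unc-32 and the 6 bound V1 genes none with fewer than 3.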
